A study of Mus musculus with 20 samples.

Results

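Monocarboxylate transporters of the SLC16 family, their membrane chaperone basigin and the 2 main lactate dehydrogenase subunits were examined in brains from *Winnie* and C57BL/6 mice. The set comprised 9 genes, namely *Slc16a1*, *Slc16a7*, *Slc16a6*, *Slc16a9*, *Slc16a12*, *Slc16a14*, *Bsg*, *Ldha* and *Ldhb*, picked by name from the 17211 genes of the deposited expression table, and all 9 were listed there. The study compared brains of *Winnie* mice, a strain with spontaneous chronic colitis through a missense mutation in *Muc2*, the gene of the main intestinal mucin, with brains of C57BL/6 mice. No treatment is named in the labels, and all mice were 14 weeks old and came from a shared colony. Each genotype had 10 brains, 5 of them labelled female and the other 5 male, and RNA was prepared from each mouse. PolyA libraries were sequenced, and the level of a gene is given as CPM, its read count scaled to a fixed total over the listed genes of each sample. The mutation is carried in all cells, the mice are colitic, and the brain region taken is not given in the sources used here. Since bulk RNA was sequenced, fewer cells of a type and less RNA per cell cannot be told apart.

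Lactate, pyruvate and ketone bodies cross cell membranes together with a proton through the monocarboxylate transporters MCT1 (*Slc16a1*) and MCT2 (*Slc16a7*). In the brain, MCT1 is known from endothelial cells and glia, MCT2 from neurons, and basigin (*Bsg*) brings MCT1 to the cell surface. Lactate dehydrogenase interconverts pyruvate and lactate as a tetramer of A (*Ldha*) and B (*Ldhb*) subunits, with B-rich forms typical of oxidative tissue. Other members of the family carry other substrates, as MCT12 (*Slc16a12*) carries creatine, and MCT14 (*Slc16a14*) is among those whose substrate is not well known.

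Expression of *Slc16a12* was higher, and that of *Bsg* and *Slc16a6* lower, in *Winnie* mouse brains than in brains from C57BL/6 mice. These 3 of the 9 genes had a false discovery rate (FDR) under 0.05 in limma on log2(CPM + 0.5), where 2.52% of all genes did. The genes were chosen with the genotype results known, so the fold changes and FDR values are a description, and nothing is read from the count. By direction, 1 of the 9 was called higher against 1.52% of all genes, and 2 were called lower against 1.01%. The median log2 fold change of the set was -0.05, with 4 values above 0 and 5 below, and that of all genes was 0.00 to 2 decimals. At the threshold of the study's methods, an FDR under 0.001 together with a minimum fold change, limma called 0 genes and edgeR's quasi-likelihood test called 1 gene, none of them in the set. DESeq2 called 12 genes at that threshold, *Slc16a12* among them. The paper names fewer brains of each genotype than were analysed here and reports changed genes in the *Winnie* brain. The counts given here are thus not a repeat of its own. With limma 5 of the 9 had an unadjusted p under 0.05, as did 17.6% of all genes.

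**Figure D1:**
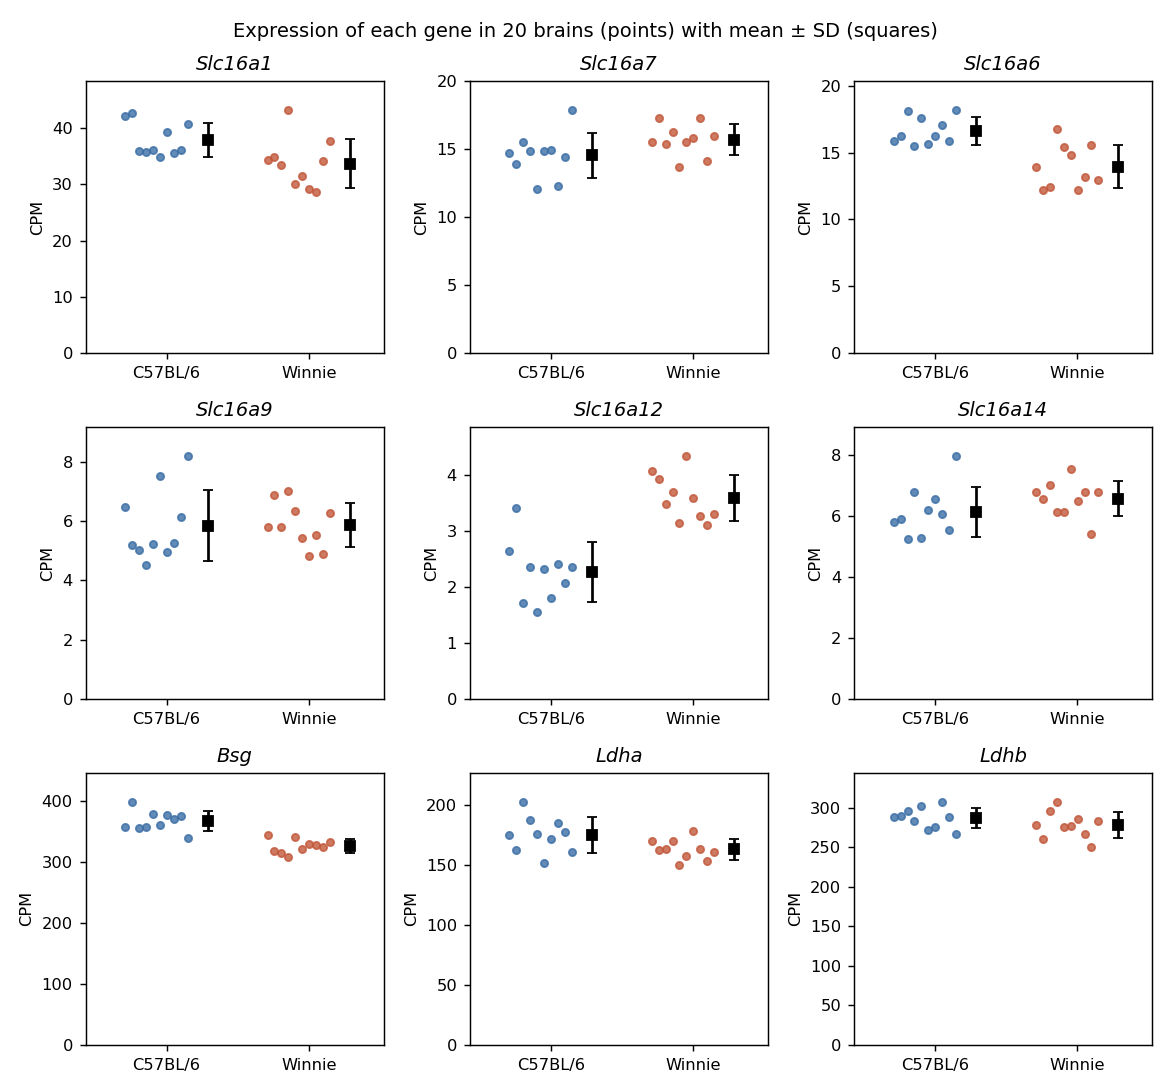
CPM of each gene (vertical axes from 0) in 10 C57BL/6 brains (blue points) and 10 *Winnie* brains (orange points), with group means ± SD as black squares and bars. For *Slc16a12*, 6 *Winnie* points lie above the highest C57BL/6 point, and for *Bsg*, 8 *Winnie* points lie below the lowest C57BL/6 point.

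The 20 libraries held 16540303 to 23923769 reads over the listed genes. The female-specific *Xist* and the Y-linked *Ddx3y* went with the labelled sex in all 10 *Winnie* samples and against it in 9 of 10 C57BL/6 samples. *Xist* was above *Ddx3y* in 6 C57BL/6 and 5 *Winnie* samples, and below it in 4 and 5. Sex is given as labelled and no sample was regrouped. The S numbers that end the sample names ran from 1 to 10 in C57BL/6 and from 11 to 20 in *Winnie* samples. What they stand for is not given in the labels, and their order and genotype cannot be told apart. Summed markers of neurons, the labelled tissue's defining cells, lay between 7746 and 8536 CPM in C57BL/6 and between 7860 and 8514 CPM in *Winnie* samples, and all 10 markers were listed.

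The start-site regions are given before the values of each gene, because those of *Slc16a12*, *Slc16a1* and *Ldha* share a short motif. RefSeq windows of 300 bases on GRCm38.p6, running from 250 bases before the start site to 50 after it, were held for 6 of the 9 genes, with 2 windows for *Ldha*. *Slc16a6*, *Slc16a7* and *Bsg* had none. They were searched on both strands for ACGTG (the core of the hypoxia response element), CACGTG (an E-box, which contains the former motif), TGACG (part of the cyclic AMP response element) and AGAACA (part of the glucocorticoid response element). CACGTG occurred in the windows of *Slc16a12*, *Slc16a1* and *Ldha*, and in 7.15% of all 32851 windows. The upstream *Ldha* window held it at 2 places and TGACG in both orientations, and the downstream *Ldha* window held TGACG once, which 20.8% of all windows hold at least once. Besides those inside a CACGTG there was 1 more ACGTG in the upstream *Ldha* window and 1 in the window of *Slc16a1*, while 19.6% of all windows hold it. AGAACA occurred only in the *Slc16a12* window among the 7, against 18.97% of all windows. None of the 4 motifs occurred in the windows of *Ldhb*, *Slc16a9* and *Slc16a14*. Matches are shown in capitals and describe the letters only.
Slc16a12, chr19:34747279-34747578, minus strand: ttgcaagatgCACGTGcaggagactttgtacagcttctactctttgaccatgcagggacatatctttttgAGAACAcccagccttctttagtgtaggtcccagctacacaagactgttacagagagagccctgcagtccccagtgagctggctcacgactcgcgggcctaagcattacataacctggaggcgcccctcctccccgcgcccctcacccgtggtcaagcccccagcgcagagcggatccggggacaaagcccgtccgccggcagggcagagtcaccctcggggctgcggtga
Slc16a1, chr3:104638414-104638713, plus strand: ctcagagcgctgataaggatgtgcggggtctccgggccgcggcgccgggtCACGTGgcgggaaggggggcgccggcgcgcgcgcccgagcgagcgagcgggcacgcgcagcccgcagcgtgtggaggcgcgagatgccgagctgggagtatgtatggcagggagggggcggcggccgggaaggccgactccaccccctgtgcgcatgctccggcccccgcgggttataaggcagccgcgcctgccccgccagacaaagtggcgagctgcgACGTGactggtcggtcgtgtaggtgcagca
Ldha, upstream window, chr7:46845554-46845853, plus strand: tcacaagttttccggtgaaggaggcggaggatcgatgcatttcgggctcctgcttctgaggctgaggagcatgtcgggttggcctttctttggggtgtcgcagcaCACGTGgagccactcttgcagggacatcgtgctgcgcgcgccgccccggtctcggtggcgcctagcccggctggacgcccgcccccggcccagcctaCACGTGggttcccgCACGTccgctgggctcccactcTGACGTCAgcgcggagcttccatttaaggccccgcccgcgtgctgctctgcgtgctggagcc

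Levels of the genes relative to each other were compared as CPM per kb of annotated exon. *Bsg* had the highest level, at 191 ± 13.9 CPM per kb (SD, n = 20 brains), followed by *Ldhb* at 180 ± 9.66. Their ranges overlapped, and *Bsg* was above *Ldhb* in 17 of 20 brains. *Ldha* came next at 51.0 ± 3.98 CPM per kb, with its highest brain (61.2) far below the lowest brain of *Ldhb* (159.6). The most abundant transporter was *Slc16a1* at 8.09 ± 0.959 CPM per kb, a level that *Ldha* exceeded 6.31-fold. *Slc16a6*, at 3.13 ± 0.390 CPM per kb, was below *Slc16a1* in 20 of 20 brains without overlap of their ranges. Then followed *Slc16a14* (1.89 ± 0.216 CPM per kb), *Slc16a9* (1.51 ± 0.253) and *Slc16a7* (1.28 ± 0.127). *Slc16a14* lay below *Slc16a6* without overlap, while its range overlapped that of *Slc16a9*, as did the ranges of *Slc16a9* and *Slc16a7*. *Slc16a14* was above *Slc16a9* in 19 of 20 brains and *Slc16a9* above *Slc16a7* in 16. *Slc16a12* had the lowest level of the set, at 0.702 ± 0.198 CPM per kb, and lay below *Slc16a7* in 20 of 20 brains. The per-kb level of *Slc16a7* rests on 11839 bases of annotated exon over its 6 transcripts, the longest of the set. That of *Ldha* rests on 3310 bases over 15 transcripts, and that of *Ldhb* on 1570 bases over 4. The distance between these 2 genes thus depends on annotated length. In plain CPM it was smaller, with *Ldha* at 203 in its highest brain and *Ldhb* at 251 in its lowest.

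**Figure D2:**
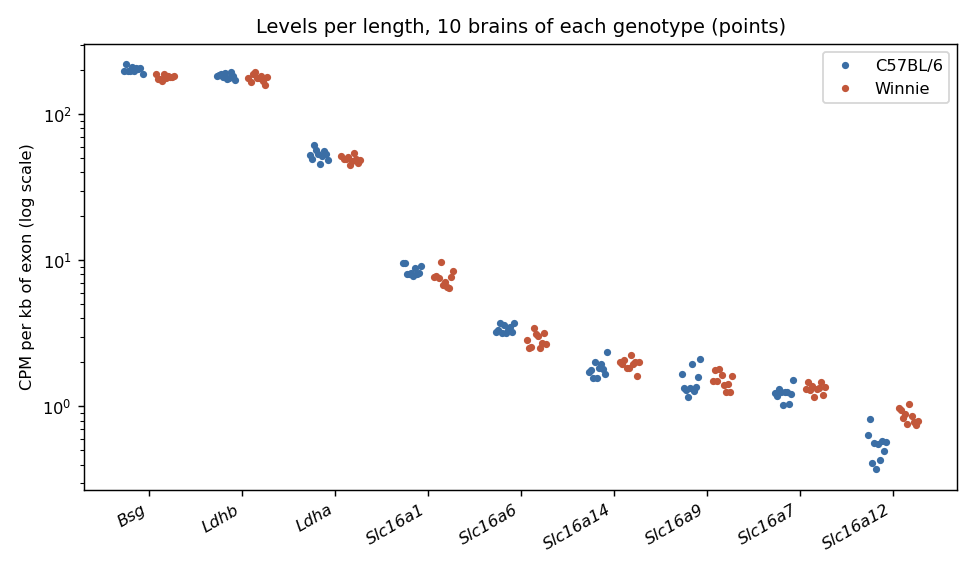
Level of each gene in CPM per kb of exon (logarithmic vertical axis), with genes ordered by mean level and a point for each of 10 C57BL/6 (blue) and 10 *Winnie* (orange) brains. *Bsg* and *Ldhb* stand near 191 and 180 CPM per kb, and *Slc16a12* lies lowest at 0.702.

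*Slc16a12* (ENSMUSG00000009378), encoding MCT12, is found on the minus strand of chromosome 19 between 34668403 and 34747289 in GRCm38. Its expression was lowest at 1.55 CPM, had its median at 2.34 CPM and was highest at 3.42 CPM in C57BL/6 brains. In *Winnie* mouse brains the lowest, median and highest values were 3.10, 3.54 and 4.34 CPM. All 10 *Winnie* brains were above the C57BL/6 median and 6 were above the highest C57BL/6 brain, while 9 of 10 C57BL/6 brains were below the lowest *Winnie* brain. The exception was C57BL/6 replicate 2, through which the ranges overlapped. The C57BL/6 mean was 2.27 ± 0.536 CPM (SD, n = 10), and the *Winnie* mean was 58.4% higher at 3.59 ± 0.415 CPM (SD, n = 10). The log2 fold change was 0.58 (standard error 0.0973, 95% confidence interval 0.38 to 0.78, limma FDR 0.00314). On 30 to 80 reads per brain the added 0.5 CPM lowers this value, which was 0.67 with edgeR's quasi-likelihood test on the recovered reads (FDR 0.00375).

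*Slc16a6* (ENSMUSG00000041920) encodes MCT7, a transporter linked to ketone body export from the liver. The gene occupies chromosome 11 from 109450855 to 109473598 (GRCm38, minus strand), and its exons overlap those of *Amz2* and *Arsg* on the other strand and of *Gm25540* on its own strand. Exons of *Slc16a7* overlap *Gm47862*, and those of *Slc16a9* overlap *Gm7097* and *Gm9877*, all on the other strand. Whether strand was used in counting is not given in the sources used here, so reads of these overlapping genes may not have been told apart. In C57BL/6 brains its lowest, median and highest values were 15.5, 16.2 and 18.2 CPM. *Winnie* mouse brains had 12.2, 13.6 and 16.8 CPM, with 8 of 10 below the lowest C57BL/6 brain and 1, replicate 4, above the C57BL/6 median. C57BL/6 brains had a mean of 16.6 ± 1.04 CPM (SD, n = 10) and those of *Winnie* mice 13.9 ± 1.61 CPM (SD, n = 10), and the log2 fold change was -0.25 (standard error 0.0586, 95% confidence interval -0.37 to -0.13, limma FDR 0.0204).

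*Slc16a1* (ENSMUSG00000032902; chromosome 3, 104638668 to 104658462, plus strand), the gene of MCT1, did not pass the FDR threshold, with 8 of 10 *Winnie* brains below the C57BL/6 median. Its lowest, median and highest values were 34.8, 36.1 and 42.7 CPM in C57BL/6 brains and 28.7, 33.8 and 43.1 CPM in *Winnie* mouse brains. Of the 10 *Winnie* brains 7 were below the lowest C57BL/6 brain, yet replicate 4 was above the highest. The log2 fold change was -0.17 (standard error 0.0602, 95% confidence interval -0.30 to -0.05, limma FDR 0.111). Without *Winnie* replicate 4 it was -0.21 with an FDR of 0.0307, and with DESeq2 on all brains the FDR was 0.0496, so whether *Slc16a1* is called turned on this brain and on the tool.

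*Slc16a7* (ENSMUSG00000020102; chromosome 10, 125219270 to 125389465, minus strand), encoding the neuronal MCT2, had lowest, median and highest values of 12.1, 14.8 and 17.9 CPM in C57BL/6 and 13.7, 15.7 and 17.3 CPM in *Winnie* mouse brains. Its log2 fold change of 0.11 had a 95% confidence interval of -0.01 to 0.23 (limma FDR 0.345). *Slc16a14* (ENSMUSG00000026220; chromosome 1, 84905898 to 84935134, minus strand) spanned 5.23 to 7.96 CPM in C57BL/6 and 5.41 to 7.54 CPM in *Winnie* mouse brains, with a log2 fold change of 0.10 (95% confidence interval -0.05 to 0.24, limma FDR 0.511). For both transporters the range of the *Winnie* brains lay within that of the C57BL/6 brains. Above the C57BL/6 median were 8 of 10 *Winnie* brains for *Slc16a7* and 9 of 10 for *Slc16a14*. *Slc16a9* (ENSMUSG00000037762; chromosome 10, 70245100 to 70285968, plus strand), the gene of MCT9, a carnitine transporter, had a coefficient of variation of 20.7% in C57BL/6 brains, exceeded in the set only by 23.6% for *Slc16a12*, and ran there from 4.51 to 8.19 CPM. It ran from 4.83 to 7.02 CPM in *Winnie* mouse brains, 8 of 10 of them above the C57BL/6 median, and had a log2 fold change of 0.02 (95% confidence interval -0.17 to 0.21, limma FDR 0.944).

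*Bsg* (ENSMUSG00000023175), the gene of basigin, lies on the plus strand of chromosome 10 (79704491 to 79711969, GRCm38) and rests on 5635 to 8532 reads per brain. Its lowest, median and highest values were 340 (replicate 10), 366 and 399 CPM in C57BL/6 brains and 308, 326 and 344 CPM in *Winnie* mouse brains. All 10 *Winnie* brains were below the C57BL/6 median and 8 were below the lowest C57BL/6 brain, while 9 of 10 C57BL/6 brains were above every *Winnie* brain. The mean was 367 ± 16.4 CPM (SD, n = 10) in C57BL/6 brains and 326 ± 11.2 CPM (SD, n = 10) in those of *Winnie* mice, for a log2 fold change of -0.17 (standard error 0.0315, 95% confidence interval -0.24 to -0.11, limma FDR 0.00590). The coefficient of variation of *Bsg* between brains was 3.42% in *Winnie* mice, the smallest of the 9 genes there, and 4.48% in C57BL/6 mice, where that of *Ldhb* was 4.43%.

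*Ldha* (ENSMUSG00000063229; chromosome 7, 46841475 to 46855627, plus strand) measured 175 ± 14.6 CPM (SD, n = 10) in C57BL/6 brains and 163 ± 8.48 CPM (SD, n = 10) in those of *Winnie* mice. Its lowest, median and highest values were 152, 175 and 203 CPM in C57BL/6 and 150, 163 and 179 CPM in *Winnie* mouse brains, and 9 of 10 *Winnie* brains were below the C57BL/6 median. The log2 fold change was -0.10 (95% confidence interval -0.19 to -0.01, limma FDR 0.214). *Ldhb* (ENSMUSG00000030246; chromosome 6, 142490249 to 142507957, minus strand) measured 287 ± 12.7 CPM (SD, n = 10) in C57BL/6 brains and 278 ± 16.8 CPM (SD, n = 10) in those of *Winnie* mice, with a log2 fold change of -0.05 (95% confidence interval -0.12 to 0.03, limma FDR 0.549). *Ldhb* exceeded *Ldha* per kb in each of the 20 brains. The ratio of *Ldha* to *Ldhb* per kb ran from 0.264 to 0.325 in C57BL/6 and from 0.257 to 0.296 in *Winnie* mouse brains. Its size depends on the annotated exon lengths of the 2 genes, which are the same for every brain. On the log2 scale the ratio was -1.79 ± 0.0937 (SD, n = 10) in C57BL/6 and -1.85 ± 0.0822 (SD, n = 10) in *Winnie* brains, and the difference of -0.05 had a 95% confidence interval of -0.14 to 0.03.

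None of the 9 genes separated the genotypes without overlap, which 0.0291% of all genes (5 genes) did.

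**Figure D3:**
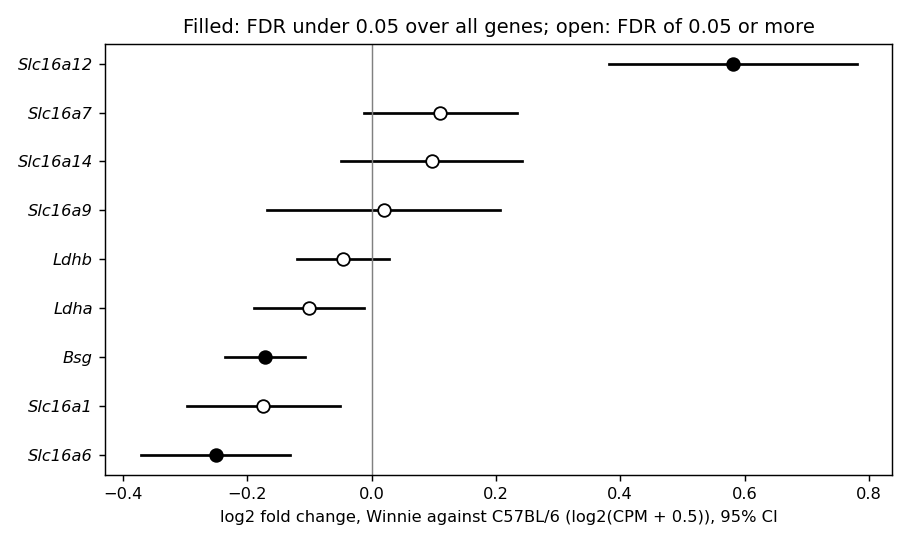
Log2 fold change of each gene, *Winnie* against C57BL/6 (horizontal axis, log2(CPM + 0.5), 10 brains per genotype), with 95% confidence intervals from limma as lines. Filled circles have an FDR under 0.05 over all genes, which are *Slc16a12* at 0.58, *Bsg* at -0.17 and *Slc16a6* at -0.25, and open circles an FDR of 0.05 or more.

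Ratios between the transporters and to their chaperone were taken in the same brains. *Slc16a1* and *Bsg* both had a log2 fold change of -0.17, and their ratio per kb had a geometric mean of 0.0422 in C57BL/6 and 0.0421 in *Winnie* mouse brains, a log2 difference of -0.01 (95% confidence interval -0.17 to 0.16). *Slc16a7* to *Slc16a1*, MCT2 to MCT1, had a geometric mean of 0.143 in C57BL/6 and 0.175 in *Winnie* mouse brains. It ran from 0.122 to 0.164 in the former and from 0.141 to 0.226 in the latter, and the log2 difference was 0.29 (95% confidence interval 0.12 to 0.46). Both ratios come from genes chosen with the genotype results known and were not tested.

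Among the 10 *Winnie* samples, in which *Xist* and *Ddx3y* go with the sex labels, labelled females and males were compared as a contrast that the choice of genes did not use. None of the 9 genes had an FDR under 0.05 with limma or with edgeR, where limma called 0.116% of all genes. *Slc16a9* was the 1 gene with an unadjusted p under 0.05, which 9.81% of all genes had. It ran from 5.78 to 7.02 CPM in 5 labelled females and from 4.83 to 6.25 CPM in 5 labelled males, with a log2 difference of 0.22 (standard error 0.0997, 95% confidence interval 0.02 to 0.43, limma FDR 0.464). In C57BL/6 samples it ran from 4.51 to 6.47 CPM in those labelled female and from 4.96 to 8.19 CPM in those labelled male, and in 9 of these 10 samples the label goes against *Xist* and *Ddx3y*. Between the labelled sexes of C57BL/6 mice, a comparison added after seeing the data, limma called 0 of all 17211 genes at an FDR under 0.05. The 0 calls among the 9 genes thus tell nothing about them. An unadjusted p under 0.05 was found for 0 of the 9, and for 4.4% of all genes. The genotype by labelled sex interaction had an FDR under 0.05 for 0 of the 9 genes with limma and with edgeR, against 0.0697% of all genes with limma. Only *Slc16a9* had an unadjusted p under 0.05 there, as did 6.12% of all genes (log2 0.46, standard error 0.168, limma FDR 0.644). This value sets a labelled female minus male difference of 0.22 in *Winnie* against -0.24 in C57BL/6 samples, and given the labels of the latter it cannot be read as a difference between the sexes. For *Slc16a12* the labelled sexes of *Winnie* mice differed by 0.05 on the log2 scale (95% confidence interval -0.18 to 0.29).

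With each genotype's mean subtracted, the 9 genes were compared over the 20 brains in 36 pairs. Pearson's r ran from -0.57 for *Slc16a7* with *Bsg* to 0.57 for *Slc16a7* with *Slc16a14*. No pair had an adjusted p under 0.05, and the lowest was 0.200 (two-sided permutation test within genotypes, 100000 resamples, Benjamini-Hochberg over 36 pairs). *Ldha* and *Ldhb* had r = 0.53 (permutation p = 0.0119, adjusted 0.200) and rho = 0.57 (permutation p = 0.0109, adjusted 0.237). Without the 2 brains farthest from the median of *Ldha*, r was 0.51, and it was 0.63 within C57BL/6 and 0.49 within *Winnie* brains. *Slc16a1* and its chaperone *Bsg* had r = -0.20 (permutation p = 0.394, adjusted 0.708) and rho = -0.13 (permutation p = 0.596, adjusted 0.865). For this pair r was 0.12 within C57BL/6 and -0.48 within *Winnie* brains, and -0.24 without the 2 brains farthest in *Slc16a1*.

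The same residuals were set against the summed CPM of marker genes of 9 cell types, in 81 relations. Highly expressed markers weigh most in such sums. In C57BL/6 brains *Slc1a2* had a mean of 2892 CPM where the median astrocyte sum was 4311 CPM. *Igf2* had 101 CPM there, where the median sum of meningeal and perivascular fibroblast markers was 199 CPM. A relation may therefore rest on few markers, and relations to single markers are not given here. *Slc16a1* ran against the neuron markers, with r = -0.68 (permutation p = 0.0009, adjusted 0.0701) and rho = -0.75 (permutation p = 0.00029, adjusted 0.0227). Pearson's r was -0.82 within C57BL/6, -0.63 within *Winnie* brains and -0.69 without the 2 farthest brains. In all relations to markers these are the 2 brains farthest from the median of the marker sum, not of the member. *Slc16a9* ran with markers of meningeal and perivascular fibroblasts, with r = 0.69 (permutation p = 0.00173, adjusted 0.0701) and rho = 0.69 (permutation p = 0.00137, adjusted 0.0370), 0.63 within C57BL/6 and 0.80 within *Winnie* brains, and 0.67 without the 2 farthest. *Ldha* ran against pericyte and smooth muscle markers, with r = -0.65 (permutation p = 0.00325, adjusted 0.0877) and rho = -0.74 (permutation p = 0.00056, adjusted 0.0227), -0.62 within C57BL/6, -0.71 within *Winnie* brains and -0.62 without the 2 farthest. It also ran against astrocyte markers, with r = -0.59 (permutation p = 0.00827, adjusted 0.112) and rho = -0.66 (permutation p = 0.00242, adjusted 0.0490), -0.68 within C57BL/6, -0.48 within *Winnie* brains and -0.70 without the 2 farthest. By Pearson's r none of the 81 relations passed an adjusted p of 0.05, and by Spearman's rho these 4 did. *Ldha* was also negative with markers of meningeal and perivascular fibroblasts (r = -0.62, rho = -0.56) and of brain endothelium (r = -0.55, rho = -0.62), which did not pass. For the fibroblast markers r was -0.71 within C57BL/6, -0.45 within *Winnie* brains and -0.35 without the 2 farthest. For the endothelial markers these values were -0.63, -0.30 and -0.58. With neuron markers the r of *Ldha* was 0.35 and with choroid plexus markers 0.00. All CPM values of a brain share 1 total, which ties the genes of a library together.

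**Figure D4:**
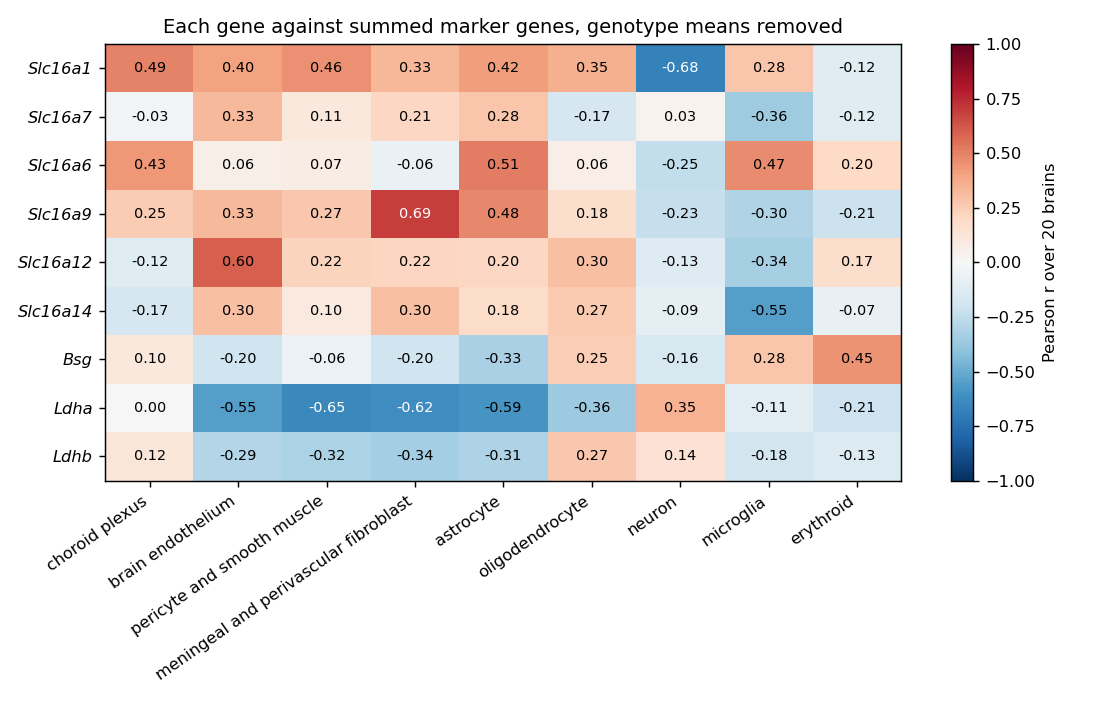
Pearson's r over 20 brains between each gene (rows) and the summed CPM of marker genes of each cell type (columns), both on a log2 scale with the mean of each genotype subtracted, from blue (-1) to red (1). *Slc16a1* with neuron markers stands at -0.68 and *Slc16a9* with meningeal and perivascular fibroblast markers at 0.69.

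The marker sums were also compared between the genotypes. All 12 endothelial markers were listed, and their sum ran from 317 to 415 CPM in C57BL/6 and from 374 to 429 CPM in *Winnie* mouse brains, a log2 difference of 0.19. With limma *Slc2a1* was called higher and *Cldn5* lower at an FDR under 0.05, and edgeR and DESeq2 called 3 of the 12 each. An unadjusted p under 0.05 was found for 5 of the 12, and 9 log2 fold changes were above 0 and 3 below. Without *Slc2a1*, an alternative chosen after seeing the data, the sum of the other 11 ran from 228 to 305 CPM in C57BL/6 and from 245 to 292 CPM in *Winnie* mouse brains, a log2 difference of 0.08. *Slc16a12* had r = 0.60 with the whole list (permutation p = 0.0200, adjusted 0.232) and rho = 0.45 (permutation p = 0.0760, adjusted 0.440), with r at 0.34 without the 2 farthest brains, 0.71 within C57BL/6 and 0.10 within *Winnie* brains. Against the list without *Slc2a1* its r was 0.41, with 0.60 within C57BL/6 and -0.24 within *Winnie* brains. *Slc16a1* with the whole list had r = 0.84 within C57BL/6 and -0.02 within *Winnie* brains, and without *Slc2a1* these were 0.84 and 0.29. For *Ldha* r was -0.68 over all brains against the list without *Slc2a1*, with -0.70 within C57BL/6 and -0.63 within *Winnie* brains. The 12 choroid plexus markers were listed too and had 0 calls with limma, edgeR or DESeq2 and 0 at an unadjusted p under 0.05, with sums of 1164 to 1500 CPM in C57BL/6 and 846 to 1576 CPM in *Winnie* mouse brains. Of the 8 erythroid markers 6 were listed and 0 of them called with limma, edgeR or DESeq2 (2 at an unadjusted p under 0.05), and their sums ran from 138 to 257 CPM in C57BL/6 and from 84.3 to 191 CPM in *Winnie* mouse brains. All 6 had log2 fold changes below 0, and the sums differed by -0.23 on the log2 scale. *Bsg* had r = 0.45 with the erythroid sums (permutation p = 0.0369, adjusted 0.262) and rho = 0.35 (permutation p = 0.122, adjusted 0.522). For this relation r was 0.43 within C57BL/6, 0.53 within *Winnie* brains and 0.21 without the 2 farthest brains. The part of these cells in the differences of *Slc16a12*, *Bsg* and *Slc16a1* was not tested.

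The remaining marker lists had 0 or 1 gene each called with limma. Markers of pericytes and smooth muscle (*Abcc9*), of meningeal and perivascular fibroblasts (*Slc22a6*) and of astrocytes (*Gjb6*) had 1 gene each called higher with limma, out of 10, 10 and 10 listed. In these lists edgeR called 0, 1 and 1 genes and DESeq2 called 2, 1 and 3, so *Abcc9* was not called with edgeR. Of their log2 fold changes 8, 7 and 5 were above 0 and 2, 3 and 5 below. The lowest were -0.07 for *Pdgfrb*, -0.28 for *Col3a1* and -0.17 for *Sox9*. An unadjusted p under 0.05 with limma, in either direction, was found for 3, 3 and 5 genes. The sums of these lists differed between the genotypes by 0.06, 0.04 and 0.02 on the log2 scale. Markers of oligodendrocytes, neurons and microglia had 0 called of 10 each with limma, edgeR or DESeq2, and 3, 1 and 4 at an unadjusted p under 0.05. Their sums differed between the genotypes by -0.04, 0.00 and -0.09 on the log2 scale.

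Genes whose level followed a member most closely from brain to brain were looked up among 11976 genes with a mean of at least 5 CPM, again with genotype means subtracted. They are the extremes of that many values and are given without a test. *Slc16a1* was closest to *Epb4.1l5* (r = 0.89, rho = 0.89), *Fgfr2* (r = 0.86), a fibroblast growth factor receptor, and *Unc5b* (r = 0.85), a netrin receptor, and most opposite to *Mlf2* (r = -0.88). *Slc16a12* was closest to *Aox1*, an aldehyde oxidase (r = 0.83, rho = 0.70), *Rcbtb1* (r = 0.81) and *Tgfbr3* (r = 0.79), with *Tgfbr3* at an r of 0.91 within C57BL/6 and 0.35 within *Winnie* brains. *Ldhb* was closest to *Got1*, the cytosolic aspartate aminotransferase of the malate-aspartate shuttle (r = 0.86, rho = 0.81), and *Ldha* to *Serf2* (r = 0.85, rho = 0.75), *Tsnax* (r = 0.83) and *Nme1* (r = 0.83). *Slc16a7* was closest to *Chd9* (r = 0.83, rho = 0.64), *Slc16a6* to *Zbtb10* (r = 0.76, rho = 0.78), and *Slc16a9* to *Htra3* (r = 0.85, rho = 0.84). For *Slc16a14* the closest gene was *Bicd1* (r = 0.78, rho = 0.73) and for *Bsg* it was *Kdelr1* (r = 0.77, rho = 0.86).

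Other genes of lactate, pyruvate and ketone handling were read from the same fit. Of 8 other SLC16 transporters 7 were listed and 0 called with limma, edgeR or DESeq2, with 0 at an unadjusted p under 0.05. Their log2 fold changes ran from -0.18 for *Slc16a3*, which encodes the lactate exporter MCT4, to 0.07 for *Slc16a10*, and *Slc16a5* was not analysed here. *Emb*, the chaperone embigin that pairs with MCT2, measured 34.3 ± 3.44 CPM (SD, n = 10) in C57BL/6 brains and 34.1 ± 3.50 CPM (SD, n = 10) in those of *Winnie* mice, with a log2 fold change of -0.01 (95% confidence interval -0.13 to 0.11, limma FDR 0.966). The subunits of the mitochondrial pyruvate carrier had log2 fold changes of 0.12 (*Mpc1*) and -0.13 (*Mpc2*), neither called, and of the 3 genes of that list 1 had an unadjusted p under 0.05 and 0 were called with edgeR or DESeq2. *Slc5a8* and *Slc5a12* were not analysed here. *Ldhd*, the mitochondrial D-lactate dehydrogenase, and the lactate receptor *Hcar1* had log2 fold changes of 0.05 and 0.08 and were not called with limma, edgeR or DESeq2, 0 of the 2 having an unadjusted p under 0.05.

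In the list of glucose transporters and glycolysis, 17 of 17 genes were listed, with 5 log2 fold changes above 0 and 12 below and a median of -0.02. With limma 6 of the 17 had an unadjusted p under 0.05 and 2 were called, and edgeR and DESeq2 called 2 and 4. Called higher with limma was *Slc2a1*, the glucose transporter of the blood-brain barrier and glia, and called lower was *Tpi1*, triosephosphate isomerase. *Slc2a1* measured 95.6 ± 15.4 CPM (SD, n = 10) in C57BL/6 brains and 130.2 ± 12.3 CPM (SD, n = 10) in those of *Winnie* mice, a log2 fold change of 0.45 (95% confidence interval 0.29 to 0.61, limma FDR 0.00551). *Tpi1* had a log2 fold change of -0.14 (limma FDR 0.0391), and the lowest value of the list was -0.23 for *Pgk1* (limma FDR 0.0983). None of the 10 pyruvate dehydrogenase genes, kinases and phosphatases was called with limma, edgeR or DESeq2 (1 at an unadjusted p under 0.05), with values from -0.10 for *Pdhb* to 0.17 for *Pdk4*. Of the 6 ketone body genes 0 were called with limma or edgeR and 1 with DESeq2, 2 had an unadjusted p under 0.05, and the values ran from -0.33 for *Bdh2* to 0.03 for *Bdh1*. In the creatine list, 5 of 7 were listed and 2 were called with limma, as with edgeR and DESeq2. An unadjusted p under 0.05 was found for 3 of these 5. *Slc6a8*, the creatine uptake transporter, was called higher, with 116 ± 5.26 CPM (SD, n = 10) in C57BL/6 brains and 128 ± 8.37 CPM (SD, n = 10) in those of *Winnie* mice (log2 0.14, limma FDR 0.0431). *Gatm*, which catalyses the first step of creatine synthesis, was called lower, with 146 ± 9.63 CPM in C57BL/6 brains and 132 ± 6.42 CPM in those of *Winnie* mice (log2 -0.15, limma FDR 0.0388), and the lowest value was -0.15 for *Gamt* (limma FDR 0.146).

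**Figure D5:**
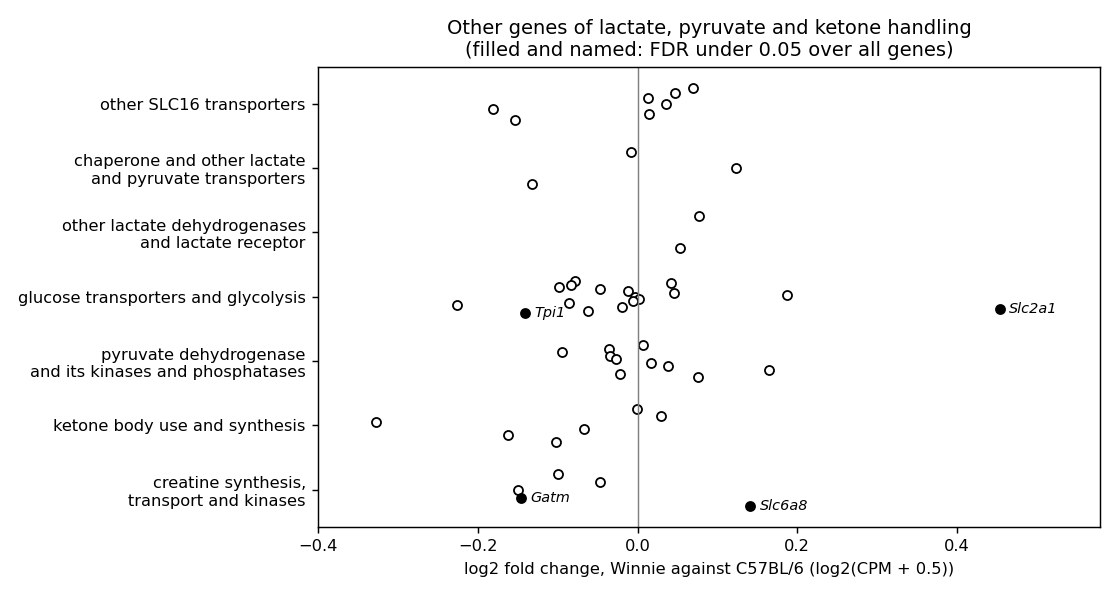
Log2 fold change, *Winnie* against C57BL/6 (horizontal axis, log2(CPM + 0.5)), of the listed genes of 7 groups (vertical axis), where filled and named points have an FDR under 0.05 over all genes. *Slc2a1* lies farthest right at 0.45, and *Tpi1*, *Gatm* and *Slc6a8* are the other filled points.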

How the data were processed

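PolyA libraries of 10 C57BL/6 and 10 *Winnie* brains were sequenced as paired-end reads and run through the RNAsik pipeline on GRCm38, with featureCounts for counting. The authors deposited CPM from Degust. The aligner, the strandedness of counting and the filter on low counts are not given in the sources used here. Every deposited value was a whole number of reads within 0.001 CPM, and 100% of values in each sample were recovered, with 16540303 to 23923769 reads per sample. A single read was worth 0.0418 to 0.0605 CPM.

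Genotypes were tested on log2(CPM + 0.5) by limma 3.58.1 (R 4.3.3), using trended and robust variances without filter or covariate, and the FDR was taken by Benjamini-Hochberg over all 17211 genes. edgeR 4.0.16 and DESeq2 1.42.0 were run on the recovered reads. Further alternatives used a pseudocount of 0.1 or 1, only genes of mean CPM 1 or more, median-ratio and quantile scaling, labelled sex or *Ddx3y* as a covariate, the title number as a replicate block, and each sample left out. Differences of ratios have Welch intervals from the spread between brains, with no test. In counts simulated for the *Winnie* and C57BL/6 comparison over 17211 genes, limma recovered 59.5% of 200 genes changed 1.2-fold and 92.5% of those changed 1.5-fold. The changed genes were drawn from those of mean CPM 1 or more, so these shares do not cover genes below that. Exon lengths and coordinates are from GENCODE M21 (17128 genes matched), and start-site windows from RefSeq. The members and gene lists were chosen with earlier results of these data known. Named genes are the members, *Xist* and *Ddx3y*, the 3 most alike genes and the most opposite gene of a member, and of each list the called genes and the extremes. Each sample is a mouse per the labels, and p-values measure the spread between these mice.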

Additional observations from a re-analysis of the deposited data

How the results depend on the processing

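The count of genes with an FDR under 0.05 was 434. It was 227 with the title number as a replicate block and 977 with DESeq2, and it ran from 169 to 694 with single samples left out. It moved by over 1.5 times without C57BL/6 replicates 3 (238), 5 (169), 8 (250), 9 (270) and 10 (694) and without *Winnie* replicates 2 (264), 3 (241), 7 (256) and 8 (216). The cause was not tested. Of the 9 genes, 2 to 4 were called under all 30 alternatives, against 3. *Slc16a12* and *Bsg* stayed called in all 30, with log2 fold changes of 0.50 to 0.67 and -0.18 to -0.16. *Slc16a6* was not called with the replicate block (-0.25, FDR 0.0539) and stayed called in the other 29. The title numbers are only numbers: same-numbered samples had correlations of deviations from -0.342 to 0.172, with 2 of 10 over 0.1. *Slc16a1* was called with DESeq2 (-0.17) and without *Winnie* replicate 4, and ran from -0.21 to -0.15 with samples left out. *Slc16a9* ran from -0.016 to 0.072, and turned below 0 without C57BL/6 replicates 3, 4 or 7 or *Winnie* replicates 2 or 4. The other 4 genes, the *Ldha* to *Ldhb* ratio and the counts for labelled sex and its interaction kept direction and call throughout. *Ldhc* reads could not be added to *Ldha*, since the gene was not analysed here. At 30 to 80 reads per brain, depth limits *Slc16a12* most.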
